A study of Rattus norvegicus with 12 samples.

Results

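The genes described here are those of the proteasome, chosen from the count tables by symbol: every row whose symbol starts with Psma, Psmb, Psmc, Psmd, Psme or Psmf followed by a number. The rule found 45 of 16478 gene rows. Of these, 14 encode the constitutive core particle (7 alpha and 7 beta subunits), 3 the inducible catalytic subunits of the immunoproteasome (Psmb8, Psmb9 and Psmb10), 17 the regulatory particle (6 ATPases and 11 subunits without ATPase activity) and 5 the other activators and an inhibitor of the core (Psme1 to Psme4 and Psmf1). A further 3 (Psmd5, Psmd9 and Psmd10) carry a subunit symbol but encode assembly chaperones, and Psmb11 encodes the catalytic subunit of the thymus. The other 2 rows are Psma3l, by its symbol a like copy of Psma3, and Psmc3ip, which shares only the start of the symbol.

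Liver RNA was sequenced from 12 adult obese ZSF1 rats, 6 females and 6 males, all 16 weeks old and all untreated. The obese ZSF1 rat is a hybrid strain that carries mutated leptin receptor alleles and develops obesity and metabolic disease, and both sexes here share that genotype class. No lean rats were analysed here, so the comparison of females with males holds within obese animals only. The labels number the libraries 1 to 6 in males and 7 to 13, without 11, in females, so that anything that followed this numbering cannot be told apart from sex, and since the labels tie no library to a named animal, the p-values measure the spread between these libraries.

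The proteasome degrades proteins tagged with ubiquitin. Its core is a barrel of stacked alpha and beta rings in which Psmb5, Psmb6 and Psmb7 carry the proteolytic sites, and the regulatory particle caps the barrel, binds ubiquitin chains and unfolds the substrate with its ring of ATPases. In cells exposed to interferon, and constitutively in many immune cells, Psmb8, Psmb9 and Psmb10 take the places of Psmb5, Psmb6 and Psmb7 in newly built cores, and this form produces peptides for presentation on MHC class I molecules.

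Between 6763879 and 24837602 counts fell on genes per female library and between 11381428 and 29232871 per male library, with no difference detected between the sexes (exact 2-sided permutation test, p = 0.597). Reads counted as ambiguous made up 0.359% to 0.388% of the counts in females and 1.24% to 2.20% in males. A difference between the sexes in how reads were assigned to genes cannot be told apart from sex, and its part in the small differences below, also for members with named copies, was not tested. The library of male 4 stood apart from the other males. Over all genes its counts differed from each of theirs by a chi-square per degree of freedom of 91.8 to 212, against 9.90 to 27.9 among the other 5 males. The summed level of the hepatocyte markers, in CPM (counts per 1000000 counts, scaled by TMM factors), was 238113 to 316630 in females, 243694 to 263527 in 5 males and 204879 in male 4. Male 4 was the lowest male in 5 of the 8 markers tested and the highest in 2, against 30.3% and 28.6% of all genes tested. Results that rest on male 4 are given with and without it.

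Most constitutive proteasome genes were either slightly higher in males or did not pass the test, and none was higher in females. Of the 45 rows, 43 passed the filter on low counts, which Psma3l and Psmb11 (0 to 2 counts per library) did not. With edgeR's quasi-likelihood test and Benjamini-Hochberg adjustment over all 9943 genes tested, 16 of the 43 were called higher in males at an adjusted p under 0.05 and 0 higher in females. Over all genes, 22.7% were called higher in males, 20.5% higher in females and 43.2% in either direction. The count of 16 is 37.2% of the 43 genes. The difference had the sign of higher levels in males in 33 of the 43, and the median log2 fold change of females over males was -0.12, against -0.01 over all genes. At an unadjusted p under 0.05, 21 genes were higher in males and 1, Psmd5, in females. Without male 4 the counts were 16 and 3, while 22.4% and 24.0% of all genes were called in those directions and 46.4% in either. The 3 were Psmb8, Psmb9 and Psmb10, and the 16 held Psmd12 and Psme3 in place of Psmb6 and Psmd3. Without male 4 and female 12, the female library most unlike the others of its sex, the counts were 14 and 4, while 46.7% of all genes were called.

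How libraries were scaled mattered for these small differences. With library totals in place of TMM factors, 8 of 43 genes were called higher in males and 0 in females. Over all 9943 genes, 1987 were then called higher in males and 2082 in females. With upper quartile factors the counts were 12 and 2, against 2030 and 2250 of all 9943 genes. Of the 16 genes, 8 were called in each of 21 alternative settings (Psma6, Psmb1, Psmb3, Psmb5, Psmb7, Psmd7, Psmd8 and Psme1) and 11 in each setting other than library totals (these and Psma4, Psmd4 and Psmd11). In 7 genes, each male library lay above each female library (Psmb1, Psmb3, Psmb4, Psmb5, Psmd7, Psmd8 and Psme1), while no gene had each female library above each male. Over all genes tested, 22.8% had no overlap, 12.8% with all males above all females and 10.1% the reverse. Without male 4, 9 genes had all males above all females and 2, Psmb8 and Psmb9, the reverse, while 26.6% of all genes had no overlap.

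**Figure D1:**
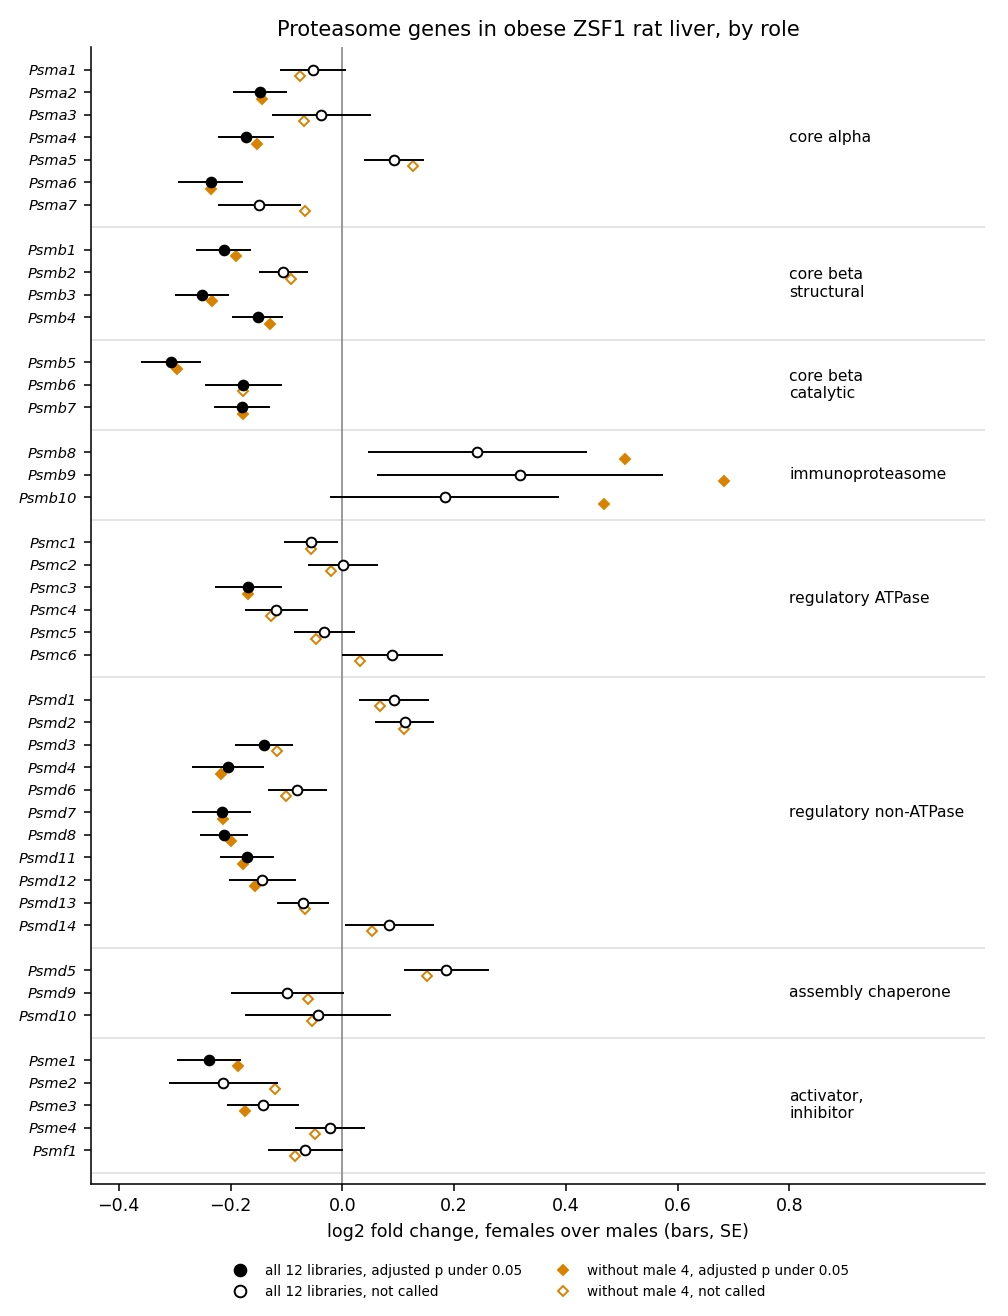
Log2 fold change of females over males for each tested proteasome gene except Psmc3ip, grouped by role, with bars for the standard error of the circles. Circles are fits on all 12 libraries and diamonds fits without male 4, filled where the adjusted p is under 0.05. Core genes lie mostly left of 0, with 9 of 14 called, and the 3 inducible subunits move right and become called when male 4 is left out.

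In the constitutive core, 9 of 14 genes were called for males and 0 for females, by 1.11-fold to 1.24-fold, while 22.7% and 20.5% of all genes were called in those directions. The mean level was higher in males in 13 of 14, Psma5 being the exception (log2 fold change 0.09, adjusted p = 0.176), and the median log2 fold change was -0.16. The summed CPM of the 14 genes was 956 to 995 in females and 1051 to 1110 in males, with no overlap. Without male 4, 8 of 14 were called and the median was -0.15. With library totals 5 of 14 were called, while 1987 of all 9943 genes were called for males.

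All 3 constitutive catalytic subunits were called higher in males. Psmb5, which carries the chymotrypsin-like site, had 56.3 CPM in the lowest, 61.1 in the median and 66.5 in the highest female library, and 71.1, 76.1 and 80.7 in the males. The sexes did not overlap. The means were 61.8 ± 3.81 in females and 76.4 ± 3.68 in males (SD, n = 6 each), a log2 fold change of -0.31 (SE 0.0542, edgeR adjusted p = 0.000413) or 1.24-fold. It was the largest fold change among the called members of the core.

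Psmb7, which carries the trypsin-like site, ranged from 84.2 to 95.4 CPM in females with a median of 86.8, and from 93.3 to 106 CPM in males with a median of 100.1. The ranges overlapped at their ends. The means were 88.1 ± 3.93 and 99.9 ± 4.58 CPM (SD, n = 6 each; log2 fold change -0.18, SE 0.0504, edgeR adjusted p = 0.00977). Psmb6, which carries the caspase-like site, ranged from 17.4 to 20.5 CPM in females with a median of 18.9, and from 19.5 to 24.3 CPM in males with a median of 20.8. Its call was marginal. The log2 fold change was -0.18 (SE 0.0688, edgeR adjusted p = 0.0492), the adjusted p without male 4 was 0.0563, and only 2 of 21 alternative settings called it.

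Among the 4 structural beta subunits, Psmb1, Psmb3 and Psmb4 were higher in males in all libraries, without overlap, and Psmb2 was not called (log2 fold change -0.11, edgeR adjusted p = 0.067). Psmb3 had the largest change of these. Its lowest, median and highest levels were 34.6, 36.5 and 39.6 CPM in females and 41.5, 44.3 and 44.9 CPM in males, which gave a log2 fold change of -0.25 (SE 0.0491, edgeR adjusted p = 0.000907). RefSeq names 10 pseudogenes or like copies of Psmb3, so that reads of Psmb3 and its copies may have been divided between them in the authors' counting.

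Of the 7 alpha subunits, which form the outer rings and the gate of the barrel, Psma2, Psma4 and Psma6 were higher in males. Psma6 changed most. It had 56.8, 59.9 and 66.2 CPM in the lowest, median and highest female library and 63.0, 71.3 and 77.9 CPM in the males, and the ranges overlapped. The log2 fold change was -0.24 (SE 0.0584, edgeR adjusted p = 0.00467), and RefSeq names 5 copies of this gene. Psma7 was not called (log2 fold change -0.15, edgeR adjusted p = 0.12), and its male range of 85.5 to 118 CPM ended in male 4.

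Of the regulatory particle, 6 of 17 genes were called for males and 0 for females, with a median log2 fold change of -0.08 and folds of 1.10 to 1.16 among those called. Over all genes, 22.7% were called for males and 43.2% in either direction. With library totals 2 of 17 were called, while 1987 of all 9943 genes were called for males. Without male 4 the count was again 6, with Psmd12 in place of Psmd3. Upper quartile factors gave 4 higher in males and 1, Psmd2, higher in females, against 2030 and 2250 of all 9943 genes.

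Among the 6 ATPases, which unfold the substrate and thread it into the core, only Psmc3 passed the test. Its levels were 88.8, 94.5 and 97.8 CPM in the lowest, median and highest female library and 95.7, 105 and 118 CPM in the males, which overlapped. The log2 fold change was -0.17 (SE 0.0593, edgeR adjusted p = 0.0325), and 11 of 21 alternative settings called it. The other 5 ATPases had a log2 fold change between -0.12 and 0.09.

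Of the 11 subunits without ATPase activity, Psmd3, Psmd4, Psmd7, Psmd8 and Psmd11 were higher in males. Psmd4 is a receptor for ubiquitin chains. Psmd7, the partner of the deubiquitinase Psmd14 in the lid, changed most. Its levels were 77.2, 81.2 and 83.2 CPM in the lowest, median and highest female library and 85.4, 93.1 and 103 CPM in the males, without overlap, which gave a log2 fold change of -0.22 (SE 0.0520, edgeR adjusted p = 0.00387). Psmd8 was also without overlap (85.1 to 91.8 CPM in females and 99.4 to 104 CPM in males). Psmd14 itself was not called, with a log2 fold change of 0.08, nor was Psmd2, the large base subunit that binds shuttle proteins (log2 fold change 0.11, edgeR adjusted p = 0.0987).

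The activators and the inhibitor gave 1 call in 5, for males, near the 22.7% of all genes called in that direction. Psme1, the alpha subunit of an interferon-inducible cap that opens the core without ATP, had 81.3, 86.5 and 89.3 CPM in the lowest, median and highest female library. In males these were 94.2, 99.9 and 116 CPM, the highest being male 4, and the sexes did not overlap. The log2 fold change was -0.24 (SE 0.0571, edgeR adjusted p = 0.0037), and without male 4 it was -0.19 (adjusted p = 0.00625). Psme2, its partner subunit in the same cap, ranged from 14.2 to 18.0 CPM in females with a median of 16.9, and from 15.7 to 24.5 CPM in males with a median of 19.2, and was not called (log2 fold change -0.21, SE 0.0972, edgeR adjusted p = 0.0908). Both genes have 3 named copies in RefSeq. Psme3, the subunit of a nuclear cap, was not called with all libraries (edgeR adjusted p = 0.0912) and was called higher in males without male 4 (0.0203).

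None of the 3 assembly chaperones with Psmd symbols was called. Psmd5 had a log2 fold change of 0.19 (edgeR adjusted p = 0.0585) and was called higher in females in 8 of 21 alternative settings. Psmc3ip, a recombination factor that only shares a symbol stem, had 10 to 58 counts per library and was not called (log2 fold change -0.53, edgeR adjusted p = 0.0833).

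The inducible subunits showed another pattern. In 5 of the 6 males all 3 were lower than in most or all females, and in male 4 all 3 were higher than in any other library of either sex. Psmb8, the inducible counterpart of Psmb5, had 100.04, 108 and 119 CPM in the lowest, median and highest female library. In males it had 67.6, 76.0 and 166 CPM, the highest being male 4 and the next 96.1. Psmb9, the counterpart of Psmb6, had 28.7, 35.7 and 41.6 CPM in females and 19.8, 22.5 and 58.2 CPM in males, with 25.9 next to male 4. Psmb10, the counterpart of Psmb7, had 24.4, 27.0 and 30.3 CPM in females and 18.2, 18.8 and 44.0 CPM in males, with 25.1 next to male 4.

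Over all 12 libraries none of the 3 was called. The Psmb8 means were 109 ± 8.29 CPM in females and 92.2 ± 37.5 in males (SD, n = 6 each), a log2 fold change of 0.24 (SE 0.196, edgeR adjusted p = 0.348). The log2 fold change of Psmb9 was 0.32 (SE 0.256, edgeR adjusted p = 0.345) and that of Psmb10 0.18 (SE 0.204, edgeR adjusted p = 0.503). Without male 4 all 3 were called higher in females. Psmb8 was then 1.42-fold higher (log2 fold change 0.51, SE 0.0846, edgeR adjusted p = 0.000207). Psmb9 was 1.60-fold higher (0.68, SE 0.102, edgeR adjusted p = 8.73e-05) and Psmb10 1.38-fold higher (0.47, SE 0.0869, edgeR adjusted p = 0.000501). The females and the 5 males then did not overlap in Psmb8 and Psmb9 and overlapped in Psmb10, where 24.4 CPM in the lowest female stood against 25.1 in male 1. Male 4 was left out because its whole library stood apart, and the calls without it are results of the remaining 11 libraries only.

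**Figure D2:**
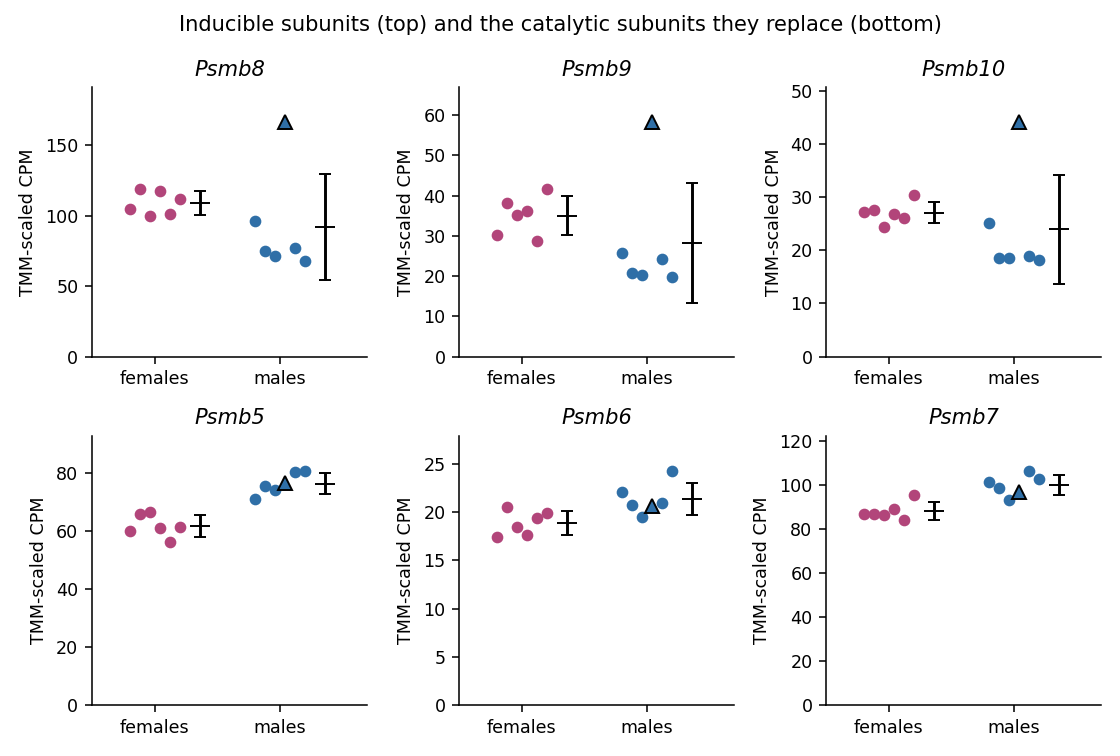
TMM-scaled CPM of the 3 inducible subunits (top row) and of the constitutive subunit each replaces (bottom row) in every library, 6 females and 6 males, with the mean and SD of each sex and male 4 as a triangle. Male 4 is above every other library at Psmb8 (166 CPM), Psmb9 (58.2 CPM) and Psmb10 (44.0 CPM) and lies among the other males at Psmb5, Psmb6 and Psmb7.

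The promoters of the 3 pairs were read from RefSeq (assembly GRCr8) as the 250 bases before each annotated start, to show what letters the inducible and constitutive genes carry there. Windows were found for 39 of the 45 members. Capitals mark matches, on either strand, to 4 short motifs: the core of the antioxidant response element bound by Nrf1 and Nrf2 (TGACNNNGC), the interferon-stimulated response element (GAAANNGAAA), the gamma-activated site (TTCNNNGAA) and the CCAAT box (CCAAT). The windows are chr20:4657032-4657281 (minus strand) for Psmb8, chr20:4668750-4668999 (plus strand) for Psmb9, chr19:50743293-50743542 (minus strand) for Psmb10, chr15:32047380-32047629 (minus strand) for Psmb5, chr10:55737638-55737887 (plus strand) for Psmb6 and chr3:42827471-42827720 (minus strand) for Psmb7. Each is written 5′ to 3′ on the strand of its gene.
Psmb8: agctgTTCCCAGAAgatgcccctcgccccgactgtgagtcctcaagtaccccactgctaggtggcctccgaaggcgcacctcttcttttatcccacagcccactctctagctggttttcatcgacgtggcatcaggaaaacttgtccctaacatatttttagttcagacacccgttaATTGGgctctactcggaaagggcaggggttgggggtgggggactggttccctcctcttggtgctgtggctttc
Psmb5: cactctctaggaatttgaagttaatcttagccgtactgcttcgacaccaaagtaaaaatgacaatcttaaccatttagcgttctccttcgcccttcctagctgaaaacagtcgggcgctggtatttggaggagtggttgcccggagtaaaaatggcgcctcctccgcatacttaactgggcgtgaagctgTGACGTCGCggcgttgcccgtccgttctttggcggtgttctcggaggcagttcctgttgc
Psmb9: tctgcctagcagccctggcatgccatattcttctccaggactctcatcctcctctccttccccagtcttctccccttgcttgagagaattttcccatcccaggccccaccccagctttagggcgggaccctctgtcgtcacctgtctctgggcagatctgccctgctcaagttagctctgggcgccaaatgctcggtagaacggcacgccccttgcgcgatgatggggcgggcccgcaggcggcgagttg
Psmb6: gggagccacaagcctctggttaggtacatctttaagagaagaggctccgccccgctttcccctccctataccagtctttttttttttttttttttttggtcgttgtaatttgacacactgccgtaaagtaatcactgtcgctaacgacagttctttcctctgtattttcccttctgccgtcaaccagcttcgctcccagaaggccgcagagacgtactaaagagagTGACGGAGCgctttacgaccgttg
Psmb10: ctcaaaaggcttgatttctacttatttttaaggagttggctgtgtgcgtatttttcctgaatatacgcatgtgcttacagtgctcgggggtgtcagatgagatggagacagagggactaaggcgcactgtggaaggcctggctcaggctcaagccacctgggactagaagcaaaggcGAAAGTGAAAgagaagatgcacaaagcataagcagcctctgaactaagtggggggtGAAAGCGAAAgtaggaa
Psmb7: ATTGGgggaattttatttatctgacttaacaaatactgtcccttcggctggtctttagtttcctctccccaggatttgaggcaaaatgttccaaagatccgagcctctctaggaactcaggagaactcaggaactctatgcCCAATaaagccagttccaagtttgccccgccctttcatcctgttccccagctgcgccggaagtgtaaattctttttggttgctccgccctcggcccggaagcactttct

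Psmb10 held 2 matches to the interferon-stimulated element, starting 73 and 17 bases before the gene's start, and Psmb8 held a gamma-activated site and a CCAAT box. Psmb9 held none of the 4 motifs in its window. Its start lies 457 bases from that of Tap1, a peptide transporter gene on the opposite strand. The Tap1 window held 1 match to the interferon-stimulated element, starting 121 bases before the Tap1 start, between both starts and outside the window read for Psmb9. Psmb5 and Psmb6 each held 1 antioxidant core, 60 and 24 bases before the start, and Psmb7 held 2 CCAAT boxes. Such matches are letters in a window and show no binding.

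Over the members, the antioxidant core was found in 4 of 13 windows of the constitutive core (30.8%), 1 of 14 of the regulatory particle (7.14%) and 0 of 3 of the immunoproteasome, against 10.1% of all 33469 windows of the same length. The CCAAT box was found in 9 of 13 core windows (69.2%) and 5 of 14 regulatory windows (35.7%), against 34.0% of all windows. The interferon-stimulated element was found in 5 of 39 member windows (12.8%), those of Psma4, Psmb3, Psmb10, Psmd7 and Psme2, against 3.41% of all windows. The gamma-activated site was found in Psmb8, Psmc6, Psmd3 and Psmd7 (10.3% of member windows, against 7.67% of all). In Psmb2 a CCAAT box and an antioxidant core share a base. No test was run on these shares.

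Within a library, the ratio of an inducible subunit's counts to those of the subunit it replaces needs no scaling between libraries. It is used here only to compare libraries, since the counts are not divided by transcript length. The log2 ratio of Psmb8 to Psmb5 was 0.816 ± 0.121 in females and 0.197 ± 0.504 in males (SD, n = 6 each), a difference of 0.62 or 1.54-fold. An exact 2-sided permutation test over all assignments of the libraries gave p = 0.026, or 0.0606 after Benjamini-Hochberg adjustment over the 3 ratios. The log2 ratio of Psmb9 to Psmb6 was 0.881 ± 0.181 in females and 0.283 ± 0.621 in males, a difference of 0.60 (exact permutation p = 0.0519, adjusted 0.0606). The log2 ratio of Psmb10 to Psmb7 was -1.70 ± 0.0636 in females and -2.14 ± 0.524 in males, a difference of 0.44 (exact permutation p = 0.0606, adjusted 0.0606). None of the 3 passed the adjustment with all libraries.

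In male 4 the 3 log2 ratios were 1.12, 1.49 and -1.14, above all females and all other males. Without it, each female ratio lay above each male ratio in all 3 pairs. The differences were then 0.80 for Psmb8 to Psmb5 (1.75-fold), 0.84 for Psmb9 to Psmb6 (1.79-fold) and 0.64 for Psmb10 to Psmb7 (1.56-fold). The exact permutation p was 0.00216 for each, also after adjustment over the 3 ratios, which is the smallest that 462 assignments can give.

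**Figure D3:**
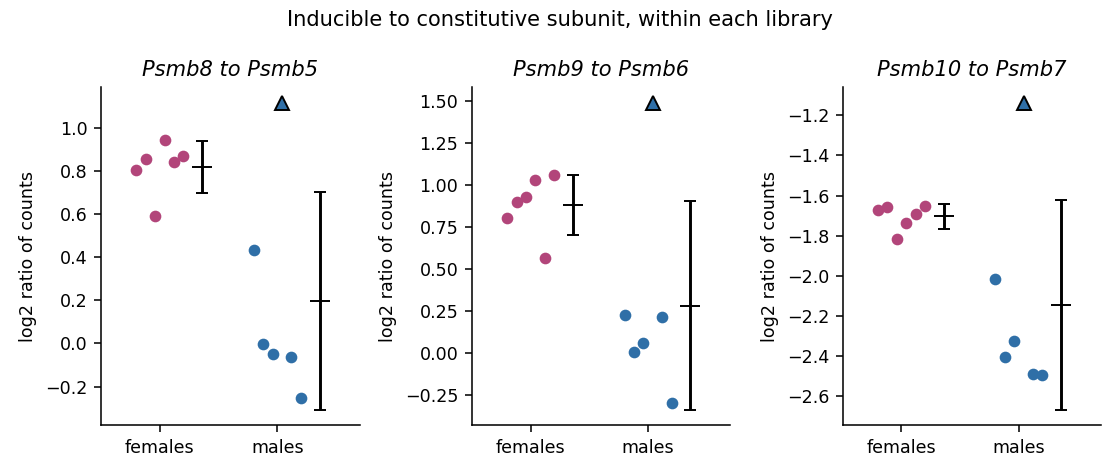
Log2 ratio of counts of each inducible subunit to the constitutive subunit it replaces, within each library, for 6 females and 6 males, with the mean and SD of each sex and male 4 as a triangle. Male 4 lies above all females in each pair (1.12, 1.49 and -1.14), and the other 5 males lie below all females.

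The spread between libraries also differed by role. The median coefficient of variation of the constitutive core genes was 4.79% in females and 4.90% in males, and that of the regulatory particle genes 3.96% and 6.38%, against 11.3% and 12.8% over all genes tested. For the immunoproteasome it was 7.61% in females, 42.6% in the 6 males and 14.2% in the 5 males without male 4.

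In male 4 the inducible subunits were 2.14-fold (Psmb8), 2.62-fold (Psmb9) and 2.21-fold (Psmb10) the mean of the other 5 males, while 5.51% of all genes tested were at 2-fold or more there. Male 4 was the highest male in all 3, and in 28.6% of all genes tested. The 14 core genes were between 0.84-fold and 1.30-fold of that mean, with a median of 1.01. The 17 regulatory genes were between 0.73-fold and 1.05-fold, with a median of 0.92, and male 4 was the lowest male in 10 of the 17. Over all genes tested, male 4 was below each other male in 30.3%. Psme1 and Psme2 were at 1.17-fold and 1.34-fold.

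**Figure D4:**
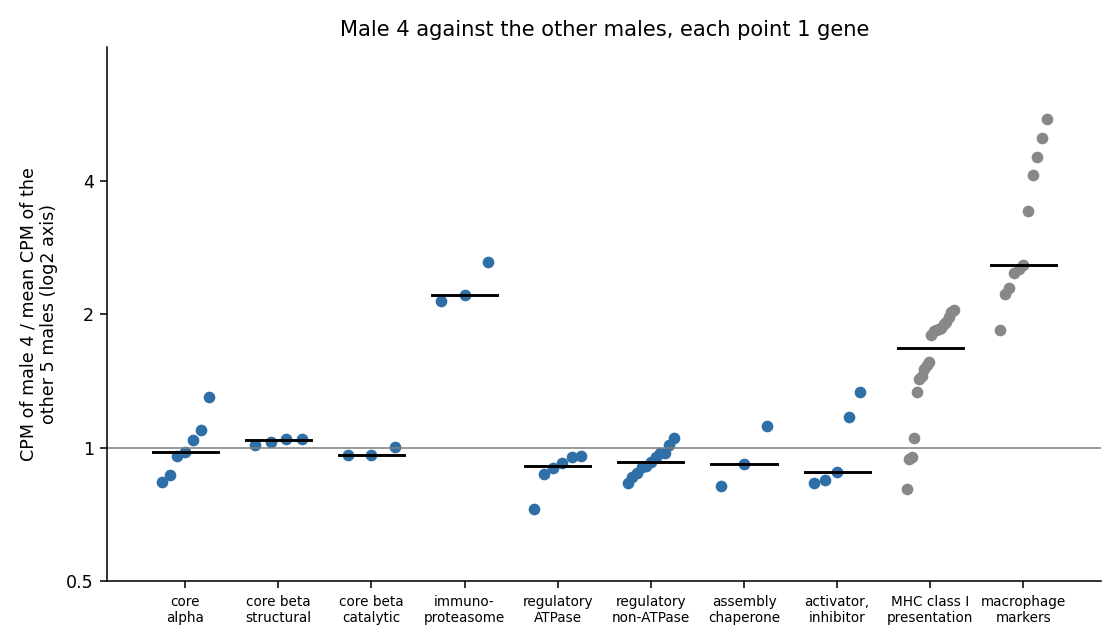
CPM of male 4 divided by the mean CPM of the other 5 males, on a log2 axis, for each tested gene of the proteasome groups and, in grey, of the MHC class I and macrophage lists, with a bar at each group's median. The 3 inducible subunits lie above 2-fold, the core genes around 1 and most regulatory genes below 1.

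The summed macrophage markers and the summed T, NK and B cell markers moved with the inducible subunits. Both sums were highest in male 4 and mostly lower in the other 5 males than in females. This pattern was not particular to immune cell markers. The summed stellate and duct markers had 106.9 CPM in male 4, 58.6 to 82.5 in the other 5 males and 76.9 to 101.7 in females. The summed neutrophil markers were also highest in male 4 but mostly lower in females than in the other 5 males. The summed sinusoidal endothelial markers were lower in males, and male 4 was not the highest male. Of the 13 macrophage markers listed, 12 had a row and 11 were tested. Their summed level was 244 to 358 CPM in females, 144 to 255 in 5 males and 559 in male 4, and Lyz2 was at 0 in all 12 libraries. Without male 4, 10 of the 11 were higher in females, while 24.0% of all genes were. With male 4 included, 2 were, while 20.5% of all genes were. The summed level of 17 T, NK and B cell markers was 23.8 to 30.2 CPM in females. In 5 males it was 18.1 to 24.7 CPM and in male 4 it was 80.7 CPM. Cd3d, Cd3e, Cd3g, Cd2, Cd8b and Ms4a1 were at 0 in at least 1 library. Only 7 of the 17 passed the filter on low counts. Without male 4, 1 of these 7 was called for females and 0 for males. The summed level of 6 neutrophil markers was 0.691 to 2.76 CPM in females, 2.35 to 3.58 in 5 males and 27.1 in male 4. Only 1 of these 6 passed the filter on low counts. The 4 sinusoidal endothelial markers summed to 76.1 to 94.5 CPM in females and 28.1 to 76.0 in males, without overlap, and male 4 had 62.8. The part of these cells in the levels of the inducible subunits was not tested. In bulk liver RNA, fewer cells of a type and less RNA per cell cannot be told apart.

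The interferon response genes did not move in male 4 as a block. It was the highest male in 7 of the 22 listed genes and the lowest in 11, against 28.6% and 30.3% of all genes tested. Its level of Cxcl9, a chemokine induced by interferon gamma, was 43.1 CPM against 7.93 ± 2.41 in the other 5 males (SD), and its level of Mx2, an antiviral gene induced by type I interferon, was 5.71 CPM against 28.4 ± 3.75. Both genes were named after their values were seen. Of the 22 genes, 5 were called for females and 0 for males, a female share near the 20.5% of all genes. The median log2 fold change was 0.06. Without male 4 the counts were 8 and 1, while 24.0% and 22.4% of all genes were called in those directions. Ifi47, an interferon-inducible GTPase, showed the largest of these differences. It had 47.7 to 130.2 CPM in females with a median of 81.4, and 4.49 to 19.8 CPM in males with a median of 5.31, a log2 fold change of 3.44 (SE 0.412, edgeR adjusted p = 5.46e-05). Ifit2, which binds viral RNA, had a log2 fold change of 1.17 (SE 0.159, edgeR adjusted p = 5.85e-05).

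The peptides the proteasome makes are trimmed and loaded by the MHC class I pathway. Of its 20 listed genes tested, 1 was called for females and 0 for males, against 20.5% and 22.7% of all genes. The median log2 fold change of the 20 was 0.07. Without male 4 the counts were 10 and 0, while 24.0% of all genes were called for females. The gene called with all libraries was Erap1, which trims peptides in the endoplasmic reticulum. It had 82.3, 85.2 and 88.5 CPM in the lowest, median and highest female library and 50.5, 58.7 and 64.6 CPM in the males, without overlap. The log2 fold change was 0.57 (SE 0.0632, edgeR adjusted p = 7.11e-06), and male 4, at 60.1 CPM, lay among the other males.

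Tap1 and Tap2 encode the peptide transporter. Tap1, the neighbour of Psmb9, ranged from 25.4 to 32.1 CPM in females and from 23.2 to 36.9 in males, the highest being male 4, and was not called (log2 fold change 0.06, edgeR adjusted p = 0.68). Without male 4 its log2 fold change was 0.17 (adjusted p = 0.0829), against 0.68 for Psmb9, and this difference between the neighbours was not tested. Tap2, with 28.9 to 43.4 CPM in females and 25.9 to 41.7 in males, was not called with all libraries (log2 fold change 0.28, edgeR adjusted p = 0.0594) and was called higher in females without male 4 (0.40, adjusted p = 0.00182).

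Among the genes that control proteasome gene expression, 3 of 9 were higher in females and 1 in males. The 4 calls in 9 genes are near the 43.2% called over all genes in either direction. Nfe2l1 encodes Nrf1, the transcription factor that raises proteasome subunit genes when proteasome activity falls. Its levels were 25.4, 28.4 and 34.7 CPM in the lowest, median and highest female library and 17.4, 22.0 and 25.3 CPM in the males, without overlap, a 1.36-fold difference (log2 fold change 0.44, SE 0.0944, edgeR adjusted p = 0.00175). Nfe2l2, which encodes the oxidative stress factor Nrf2, was 1.41-fold higher in females (194 ± 32.5 against 138 ± 13.6 CPM, SD, n = 6 each; log2 fold change 0.49, edgeR adjusted p = 0.00183), with overlap. Akirin2, which brings proteasomes into the nucleus, was higher in males (log2 fold change -0.27, edgeR adjusted p = 0.0131).

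Partners of the core and regulatory particle outside the symbol rule gave further calls in males. Shfm1, which encodes a small lid subunit, was 1.24-fold higher in males (45.6 ± 1.93 against 56.5 ± 3.44 CPM, SD, n = 6 each; log2 fold change -0.31, edgeR adjusted p = 0.000338), and Adrm1, a ubiquitin receptor, was not called (log2 fold change -0.14, adjusted p = 0.105). Of 4 dedicated assembly chaperones tested, 3 were called for males and 0 for females, while 22.7% and 20.5% of all genes were called in those directions. The count for males was again 3 with limma-voom and without female 7, female 9 or male 3. In every other alternative setting it was 2. Psmg4 had 7.22 to 11.6 CPM in females and 12.3 to 18.1 in males, without overlap (1.47-fold, edgeR adjusted p = 0.00156). Pomp, which completes the core, had 52.0 to 58.9 CPM in females and 61.7 to 69.5 in males, also without overlap (1.18-fold, edgeR adjusted p = 0.00122).

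Of 12 genes that supply and activate ubiquitin, 1 was higher in females and 4 in males, near the 43.2% of all genes called in either direction, with a median log2 fold change of -0.09. Rps27a, which encodes ubiquitin fused to a ribosomal protein, was higher in males (log2 fold change -0.27, edgeR adjusted p = 0.00154), and Uba6, a ubiquitin-activating enzyme, was higher in females (0.41, adjusted p = 0.00175). Of 13 shuttles and proteasome-bound ubiquitin enzymes, 1 was higher in females and 4 in males, a share of calls below that 43.2%, with a median of -0.03. Sqstm1, which encodes the autophagy receptor p62, had 416 to 567 CPM in females and 683 to 813 in males, without overlap, a 1.53-fold difference (log2 fold change -0.62, SE 0.0806, edgeR adjusted p = 3.38e-05). Ubqln4, a shuttle protein, was also higher in males (log2 fold change -0.25, adjusted p = 0.00191), and Ube3a, a ubiquitin ligase that binds the proteasome, was higher in females (0.32, adjusted p = 0.0108).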

How the data were processed

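Liver RNA of obese ZSF1 rats, 6 of each sex, was made into libraries with the TruSeq RNA kit from 1 µg of total RNA, per the labels' protocols. The authors deposited whole-number read counts per gene for each library, and per the submitters' processing notes Bowtie2 2.0.2, DESeq and the rat build rn4 were used, while the counting tool and strand setting are not given in the sources used here. Rows naming no gene held 27.1% to 31.7% of the deposited counts and were left out of library sizes and tests. A level of 3 counts, the limit that a count of 0 allows, was 0.103 to 0.444 CPM.

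From the counts, edgeR 4.0.16 (R 4.3.3) fitted females against males over all genes kept by filterByExpr (minimum count 10, minimum total 15), with TMM factors, a robust quasi-likelihood F test and Benjamini-Hochberg adjustment, called at an adjusted p under 0.05. Ratios of paired subunits used counts plus 0.5 and exact permutation tests (scipy 1.17.1). Alternatives were other scalings, filters and libraries left out, limma-voom 3.58.1 and DESeq2 1.42.0. Within each sex, counts of each pair of libraries differed by a chi-square per degree of freedom of at least 6.02, so none was counted as a repeat. Tested on simulated data for this comparison with 9899 genes, the fit recovered 79.1% of 1.5-fold changes, 91.0% of 2-fold changes and 100% of 4-fold changes, and 12 of its 192 calls were false. The simulation changed only 200 genes, whereas 43.2% of the genes tested in the data were called. It also drew no library that stood apart as male 4 did, so these shares may not hold for the data.

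The members and gene lists were chosen with earlier results of these data known. Values were given for the inducible and constitutive catalytic subunits, Psme1, Psme2 and, per role, the called member with the largest fold change, and for each other list the 2 called genes with the largest fold change in each direction, with Tap1, Tap2, Nfe2l1 and Nfe2l2. A gene that this rule names is not reported here. RefSeq names 49 copies of 18 members, whose reads may be shared. RefSeq promoters are of assembly GRCr8, and members were matched by symbol. Protein sequences were not used here.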

Additional observations from a re-analysis of the deposited data

Results flagged for a closer look

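In each sex, the highest and lowest of the 6 libraries were compared with the rest by Dixon's gap test at its critical value for 6 samples. Of 92 groups tested, over the levels of the proteasome genes and the 3 subunit ratios, 8 had a library far from the others, 7 of them male 4, and chance flags about 1 group in 20. Male 4 was far above the other males in Psmb8 (166.1 CPM, the next being 96.1), Psmb9 (58.2 CPM, the next being 25.9), Psmb10 (44.0 CPM, the next being 25.1) and Psma7 (117.7 CPM, the next being 96.4). It was far below them in Psme4, the gene of a nuclear activator of the core (151.6 CPM, the next being 174.2). Its log2 ratio of Psmb9 to Psmb6 was 1.49, the next being 0.23, and its log2 ratio of Psmb10 to Psmb7 was -1.14, the next being -2.02. Female 12 had the lowest Psme2 level, 14.2 CPM, the next being 16.8.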

How the results depend on the processing

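No proteasome gene was called higher in females over all libraries, but 2 were with upper quartile factors, 1 with a mean of at least 1 CPM, 1 with the 20 most abundant genes left out, 2 with DESeq2, 4 without male 4 and female 12, and 0 to 3 with single libraries left out. The 16 genes higher in males became 8 with library totals and 13 to 16 with single libraries left out, the 9 core genes 5 and 7 to 9, and the 6 regulatory genes 2 and 4 to 6. Upper quartile factors and DESeq2 each gave 1 regulatory gene higher in females, Psmd2. With single libraries left out, the log2 fold changes ranged from 0.16 to 0.51 for Psmb8, 0.23 to 0.68 for Psmb9 and 0.11 to 0.47 for Psmb10, the upper ends being without male 4, and over all alternatives their adjusted p reached 0.542, 0.523 and 0.708. Without male 4 and female 12 they were 0.53, 0.74 and 0.48. The log2 differences of the ratios ranged from 0.53 to 0.80 for Psmb8 to Psmb5, 0.48 to 0.84 for Psmb9 to Psmb6 and 0.37 to 0.64 for Psmb10 to Psmb7 with single libraries left out, and were 0.80, 0.90 and 0.64 without male 4 and female 12 (exact permutation p = 0.00794 each). Genes near 0 changed sign without being called. Psmc2 (0.0012 over all libraries) was -0.0029 without a filter, -0.0128 without male 4 and female 12, and -0.0262 to 0.0327 with single libraries left out. With single libraries left out, Psma3 ranged from -0.0835 to 0.000549, Psmd10 from -0.0800 to 0.0288 and Psme4 from -0.0551 to 0.00195. Psmd9 was 0.00938 without male 4 and female 12, and Psme4 0.00568 with upper quartile factors and 0.0028 with library totals. The cause was not tested. Differences of 1.1-fold to 1.2-fold, the size of most calls here, are below the smallest fold simulated. No paired analysis was possible because the sexes share no replicate number.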

Other observations

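The row of ambiguous reads held 0.376% ± 0.0119 of the deposited counts in females and 1.74% ± 0.337 in males (SD, n = 6 each), without overlap between the sexes. An exact 2-sided permutation test gave p = 0.00216, the smallest that the assignments can give. Male 4 had the lowest share among the males. The part of this difference in the gene counts of the sexes was not tested.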
